A study of Mus musculus with 6 samples.

Results

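The miRNAs described here are miR-320-3p, miR-320-5p and miR-484, whose precursors are known to be made without the nuclease Drosha. They were chosen by their mature identifiers (MIMAT0000666, MIMAT0017057 and MIMAT0003127), with earlier old-young results of these libraries known. They are 3 of the 2110 mature miRNA loci (1966 mature identifiers) in the deposited count table, and each is counted at 1 locus. All 3 passed the filter on low counts, as did 347 loci in all. The libraries hold small RNA of extracellular vesicles, which the labels call exosomes, from the muscle of old mice (3 libraries) and of young mice (3 libraries). All 6 are labelled as total RNA of muscle, with no genotype, treatment or strain named. Age in months, sex, which muscles were taken and how vesicles were isolated are not stated in the labels. No label ties a replicate to an animal, so p-values reflect the spread among libraries, which could be technical.

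Most miRNAs are cut out of a long primary transcript by Drosha and then trimmed by Dicer to a duplex, of which one strand, the guide, is kept. The precursor of miR-320 skips the first step. Its 5′ end is the start of transcription by RNA polymerase II and carries a cap, it leaves the nucleus by exportin 1, and Dicer cuts it in the cytoplasm. The cap disfavours loading of the 5p strand into Argonaute, so that 3p is the usual guide. miR-484 is also made from a capped precursor that Drosha does not cut, but its annotated mature strand lies on the 5p side. Common ligation-based library protocols need a 5′ phosphate and take up capped ends poorly. The kit behind these libraries is not stated in the labels.

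The coordinates are those of the file, on mm10, and gene annotations are from GENCODE release M21. Mir320 lies on chromosome 14, 70443510 to 70443591, plus strand, in no other annotated gene. Its closest neighbour is Polr3d, which encodes a subunit of RNA polymerase III and starts 63 bases away on the opposite strand, heading away from Mir320. The 5p arm spans 70443525 to 70443546 and the 3p arm 70443557 to 70443578. Mir484 lies on chromosome 16, 14159626 to 14159692, plus strand, inside Marf1 on the opposite strand. The mature miR-484, 14159630 to 14159651, falls in an intron of Marf1-202, while the far end of the hairpin overlaps exon 2 of that transcript (14159674 to 14159862). Reads were counted without strand, so a read from the opposite strand at these positions would count as well. All 3 mature miRNAs are 22 bases long as annotated, and the lengths of the counted reads were not examined. How well each sequence and end is captured may differ and was not measured.

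RefSeq sequences (GRCm38.p6) were matched for 1 of the 2 hairpins, Mir484. They are shown because the position of the mature strand in the annotated hairpin sets miR-484 apart from miR-320-3p. Capitals in the hairpin mark the mature miRNA, which starts 4 bases from the annotated 5′ end, and capitals in the mature sequence mark the seed, bases 2 to 8, which pairs with target mRNAs.
Mir484 hairpin: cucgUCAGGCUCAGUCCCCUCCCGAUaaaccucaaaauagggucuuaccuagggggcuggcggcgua
miR-484: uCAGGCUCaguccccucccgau
Of the 1679 mature names with a RefSeq sequence, miR-484 was the 1 with the seed CAGGCUC. In the annotation the miR-320 arms start 15 bases (5p) and 47 bases (3p) from the 5′ end of their hairpin. The starts of transcription, where the caps lie, were not located here.

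Totals were 904892 to 1417733 counts in old and 1459826 to 1706396 counts in young libraries. Old replicate 1 was the shallowest and stood apart. The dominant vesicle miRNA miR-21a-5p took 35.4% of its counts, while the other 2 old libraries had 49.0% and 52.9% and the young libraries 49.5% to 51.9%. All 6 fixed skeletal muscle markers had counts, and their sum was 90418 CPM in old replicate 1, 59220 CPM in old replicate 2, 49519 CPM in old replicate 3, and 50849 to 61142 CPM in young libraries. Most of it was miR-206-3p, with 79255, 50451 and 39284 CPM in old replicates 1, 2 and 3, against 46023 to 55441 CPM in young. The other markers summed to 8768 to 11163 CPM in old and 4826 to 5701 CPM in young. Of the 6 tested loci of this list, 4 rose in old by edgeR (both copies of miR-133a-3p, miR-499-5p and miR-1a-3p) and none fell, with a median log2 fold change of 0.86 beside 0.038 over all tested loci. CPM are counts relative to the library's size, which was scaled by edgeR's trimmed mean of M-values (TMM). Of 5 smooth muscle and fibroblast markers none was at 0, and they summed to 40887 to 45541 CPM in old and 31242 to 32794 CPM in young. That difference lay mainly in miR-143-3p, the 1 of the 7 tested loci that rose. Without it the sums were 16866 to 20541 CPM in old and 16981 to 17395 CPM in young, and miR-199a-5p and miR-214-3p had negative values that did not pass. The 3 red blood cell markers summed to 41265 to 48359 CPM in old and 40575 to 42834.8 CPM in young. The 5 leukocyte markers, of which miR-142a-3p was at 0, summed to 896 to 1009 CPM in old and 1144 to 1346 CPM in young. The lower sum in old lay in miR-155-5p, which fell (adjusted p = 0.0135 by edgeR). The other 3 tested members had positive values that did not pass, and without miR-155-5p the sums overlapped, at 491 to 627 CPM in old and 493 to 514 CPM in young. Both endothelial markers, miR-126a-3p and miR-126a-5p, were listed at 0, and like miR-142a-3p they overlap a locus on the other strand, where the counting leaves reads unassigned.

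All 3 miRNAs were minor components of the vesicle pool. Ranked by counts over all libraries, miR-320-3p stood 86th, miR-484 109th and miR-320-5p 137th among the loci of the table. Together they took 0.131%, 0.103% and 0.0800% of the counts in old replicates 1, 2 and 3, and 0.109%, 0.0638% and 0.105% in young replicates 1, 2 and 3. The means were 0.104% ± 0.0253 in old and 0.0924% ± 0.0249 in young (SD, n = 3 each), and the groups overlapped (two-sided exact permutation p = 0.7, where 0.1 is the smallest possible). The difference of 0.012 percentage points turned to -0.00089 without old replicate 1 and to -0.0022 without young replicate 2. In every library the order began with miR-320-3p, with miR-484 next and miR-320-5p last, except in old replicate 2, where miR-320-5p lay above miR-484.

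miR-320-3p, the guide strand of the capped miR-320 precursor, had 1014, 471 and 395 CPM in old replicates 1, 2 and 3, against 690, 331 and 634 CPM in young replicates 1, 2 and 3. Old replicate 1 was the highest of all libraries and young replicate 2 the lowest, and the groups overlapped. Its means were 627 ± 338 CPM in old and 552 ± 193 CPM in young (SD, n = 3 each), with an old over young log2 fold change of 0.18 ± 0.31 (SE), whose adjusted p was 0.80 by edgeR's quasi-likelihood test over the 347 loci. That value changed sign, to -0.32, without old replicate 1 and, to -0.09, without young replicate 2, and passed under no alternative tried. The muscle miRNA miR-206-3p was also highest in old replicate 1 (79255 CPM). So was the sum of the other skeletal muscle markers, at 11163 CPM against 8768 and 10235 CPM in old replicates 2 and 3. Among these others, miR-499-5p was lower in old replicate 1 (1434 CPM) than in old replicates 2 and 3 (1630 and 1532 CPM). Their part in the level of miR-320-3p was not tested.

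miR-320-5p, the strand opposite the guide, had 60.5, 357 and 189 CPM in old replicates 1, 2 and 3, against 86.9, 45.7 and 60.3 CPM in young replicates 1, 2 and 3. These are 60, 498 and 243 reads in the old libraries and 126, 76 and 94 reads in the young ones. Old replicates 2 and 3 were above all young libraries, and old replicate 1 lay inside the young range. The means were 201.9 ± 149 CPM in old and 64.3 ± 20.9 CPM in young (SD, n = 3 each). The log2 fold change was 1.67 ± 0.42 (SE, 3.17-fold, adjusted p = 0.0280 by edgeR), and only 1 other locus of the 347 tested had a larger absolute log2 fold change. This strand was singled out with its old-young value known, so that the p describes the fit and gives no independent support. It was the 1 of the 3 miRNAs past the threshold of 0.05, where 4.32% of all tested loci were past it and 3.46% were higher in old.

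The call for miR-320-5p depended on single libraries and on the fit. The log2 fold change was 2.12 without old replicate 1 (adjusted p = 4.07e-09 by edgeR) and 0.97 without old replicate 2 (adjusted p = 0.307). Leaving out young replicate 1 (1.93, adjusted p = 0.163), 2 (1.49, adjusted p = 0.0604) or 3 (1.62, adjusted p = 0.216) ended the call too. So did library totals with no TMM scaling (1.64, adjusted p = 0.107), DESeq2 (1.65, adjusted p = 0.194) and the replicate number as a block (1.42, adjusted p = 0.164 by edgeR). The direction was the same in each of these. The sum of the skeletal muscle markers other than miR-206-3p was higher in each old library, old replicate 1 included, than in any young one, and its part in the level of miR-320-5p was not tested.

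miR-484 had 116, 218 and 276 CPM in old replicates 1, 2 and 3, against 317, 278 and 328 CPM in young replicates 1, 2 and 3. Every old library was below every young one, though old replicate 3 and young replicate 2 were nearly level. The means were 203 ± 80.8 CPM in old and 308 ± 26.2 CPM in young (SD, n = 3 each). Its log2 fold change of -0.59 ± 0.25 (SE) did not pass (adjusted p = 0.174 by edgeR), and 0.865% of all tested loci passed as lower in old. It was the 1 of the 3 miRNAs whose groups did not overlap, and 27.1% of all tested loci had such groups. Leaving out old replicate 1 gave -0.30, and leaving out old replicate 3 gave -0.87, which passed (adjusted p = 0.0250 by edgeR). Of the leukocyte markers, miR-155-5p was also lower in old, while the sum of the others overlapped between the groups, and their part in the level of miR-484 was not tested.

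**Figure D1:**
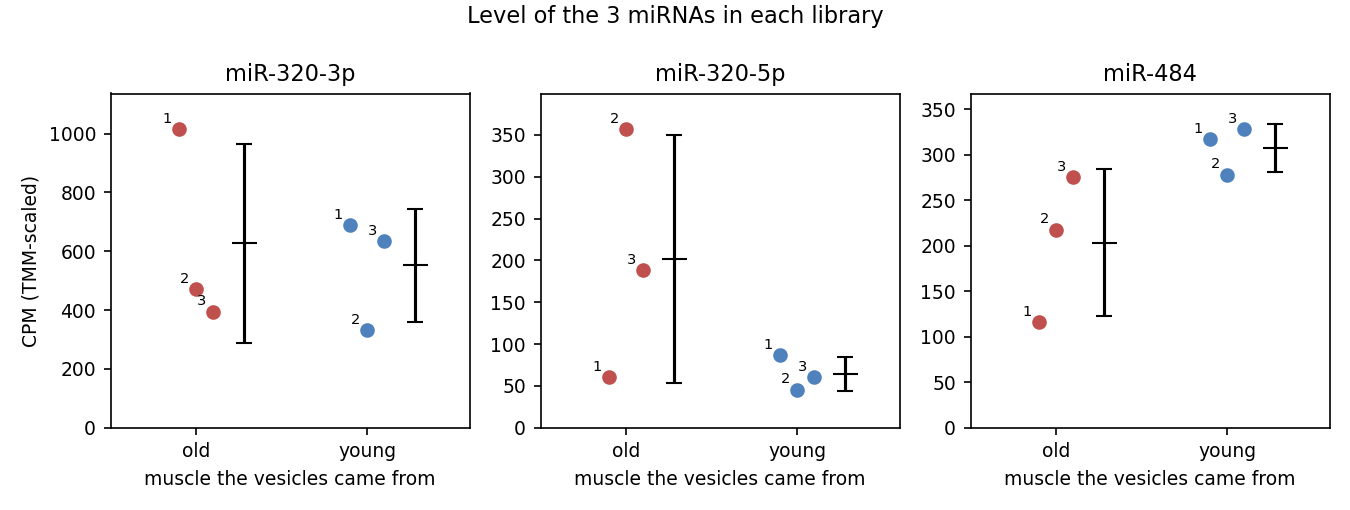
Each panel plots TMM-scaled CPM (y axis, linear from 0) of 1 miRNA in the old (red) and young (blue) libraries, numbered by replicate, with the mean and SD (n = 3) as bars beside the points. Old replicate 1 is the highest library for miR-320-3p (1014 CPM), low for miR-320-5p (60.5 CPM) and the lowest for miR-484 (116 CPM).

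The old libraries differed more from each other than the young ones for each of the 3 miRNAs. Old replicate 1 also stood apart over many loci. In chi-squared comparisons of counts over many loci, old replicate 1 against old replicates 2 and 3 gave 211 and 334 per degree of freedom. Old replicates 2 and 3 gave 35.6, and the young pairs gave 16.9 to 33.7. These comparisons use raw counts, so abundant loci weigh most in them. The highest old library was 2.57-fold above the lowest for miR-320-3p, 5.89-fold for miR-320-5p and 2.38-fold for miR-484, while the young libraries spanned 2.09-fold, 1.90-fold and 1.18-fold for the same miRNAs. The SD of log2 CPM within groups, pooled over both, was 0.65 for miR-320-3p, 0.96 for miR-320-5p and 0.46 for miR-484, against a median of 0.32 over all tested loci. By this measure miR-320-5p ranked 6th, miR-320-3p 25th and miR-484 78th among the tested loci.

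The 2 arms of miR-320 come from the same hairpin, so their ratio within a library does not depend on library size or scaling. The 5p arm held 5.63% of the miR-320 reads in old replicate 1 (60 of 1066, 95% exact Clopper-Pearson interval 4.32% to 7.19%). It held 43.1% in old replicate 2 (498 of 1156, interval 40.2% to 46.0%) and 32.3% in old replicate 3 (243 of 752, interval 29.0% to 35.8%). In young replicates 1, 2 and 3 it held 11.2% (126 of 1127, interval 9.40% to 13.2%), 12.1% (76 of 626, interval 9.69% to 14.96%) and 8.68% (94 of 1083, interval 7.07% to 10.5%). The intervals cover counting error only. The 3 young shares were close together, with intervals that overlap, while the old libraries lay on both sides of them, 1 below and 2 far above.

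Per read of the 5p arm there were 16.8, 1.32 and 2.09 reads of the 3p arm in old replicates 1, 2 and 3, and 7.94, 7.24 and 10.5 in young replicates 1, 2 and 3. 3p was the larger arm in every library, by the least in old replicates 2 and 3. Reads of both arms added up to 1075, 828 and 584 CPM in old replicates 1, 2 and 3, and 777, 377 and 695 CPM in young replicates 1, 2 and 3. These sums overlapped between the groups, with means of 829 ± 246 CPM in old and 616 ± 211 CPM in young (SD, n = 3 each; exact permutation p = 0.4, two-sided).

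**Figure D2:**
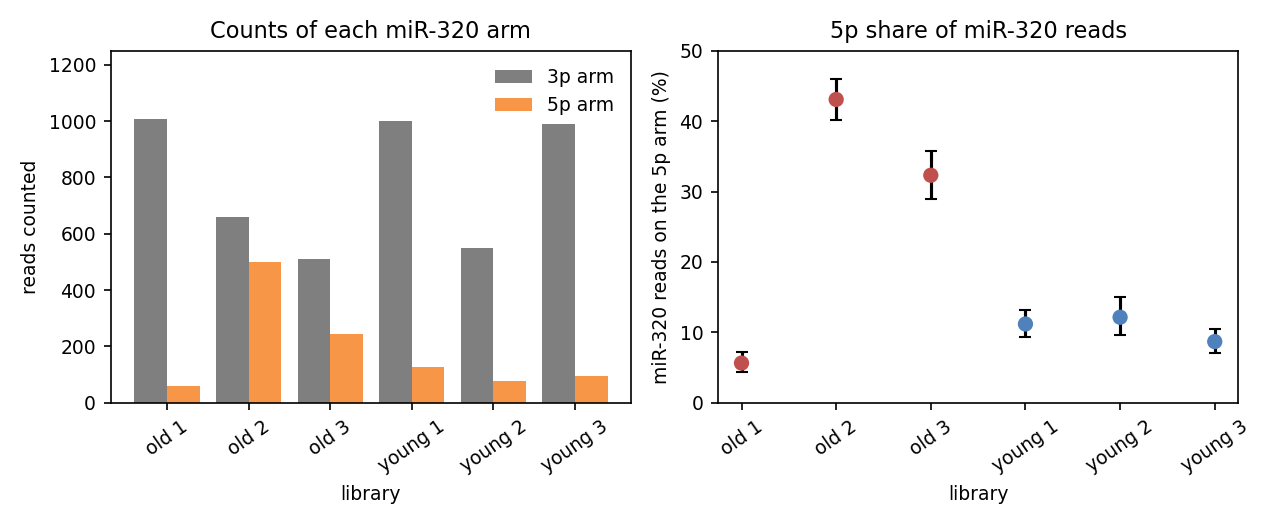
The left panel plots raw read counts of the 3p arm (grey) and the 5p arm (orange) of miR-320 in each library, and the right panel the percentage of miR-320 reads on the 5p arm with its 95% exact binomial interval (old red, young blue). The share is 43.1% and 32.3% in old replicates 2 and 3, 5.63% in old replicate 1, and 8.68% to 12.1% in the young libraries.

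On a log2 scale, with 0.5 added to each count, the ratio of 5p to 3p was -4.06, -0.40 and -1.07 in old replicates 1, 2 and 3, and -2.98, -2.85 and -3.39 in young replicates 1, 2 and 3. The means were -1.84 ± 1.95 in old and -3.07 ± 0.28 in young (SD, n = 3 each). Their difference of 1.23 had a two-sided exact permutation p of 0.4, where 0.1 is the smallest this design allows. Without old replicate 1 the difference was 2.34, and without old replicate 2 it was 0.51.

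Read against other hairpins, the arm ratio of miR-320 had the largest spread. miR-320 was chosen with old-young results of these libraries known, so its ranks among hairpins are descriptive and give no independent support. In 68 hairpins both arms passed the filter with no second copy and no overlap, and in limma's test of log2(5p/3p) over these no hairpin passed between old and young (0 of 68, or 0%; 5 had an unadjusted p below 0.05). By edgeR's exon-usage test, with arms in place of exons, 1 hairpin was past it, Mir378a, with less 5p in old. miR-320 had an old-young difference of 1.23 ± 0.64 (SE, adjusted p = 0.585 by limma), the second in size after the -1.50 ± 0.51 of Mir324 (adjusted p = 0.313). The median absolute difference over the 68 hairpins was 0.39. The old and young ratios of miR-320 overlapped, and those of 6 hairpins (8.82%) did not. Without old replicate 1 the value for miR-320 was 2.34 ± 0.31 and passed (adjusted p = 0.0033 by limma over 71 hairpins). It was the 1 hairpin past the threshold there. The two-sided exact permutation test on the same libraries gave p = 0.2, the smallest it allows there. Old replicate 1 was the old library with the low 5p share, so leaving it out gives no independent support. Without old replicate 2 it was 0.51 ± 0.52 (adjusted p = 0.770).

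The SD of log2(5p/3p) over all 6 libraries was 1.42 for miR-320, first among the 68 hairpins, whose median was 0.52. Next came let-7i with 1.14, where the lesser arm had 200 counts in all, against 1097 for miR-320. Among the 8 other hairpins whose lesser arm had at least as many counts as that of miR-320, the SD had a median of 0.40 and reached at most 0.56, in Mir214. The spread of miR-320 came from the old group: within old its SD was 1.95, first in rank, and within young 0.28, 44th in rank. The median over the 68 hairpins was also higher within old, at 0.50, than within young, at 0.36. The lesser arm of miR-320 held 18.9% of its reads over all libraries, 20th in rank among the 68 hairpins, with a median of 7.84%. In the order of the mean arm ratio its neighbours were Mir34b (-3.34) and Mir34c (-2.85) on the side of 3p and Mir214 (-2.44) and Mir193a (-2.22) on the side of 5p, with miR-320 at -2.46.

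**Figure D3:**
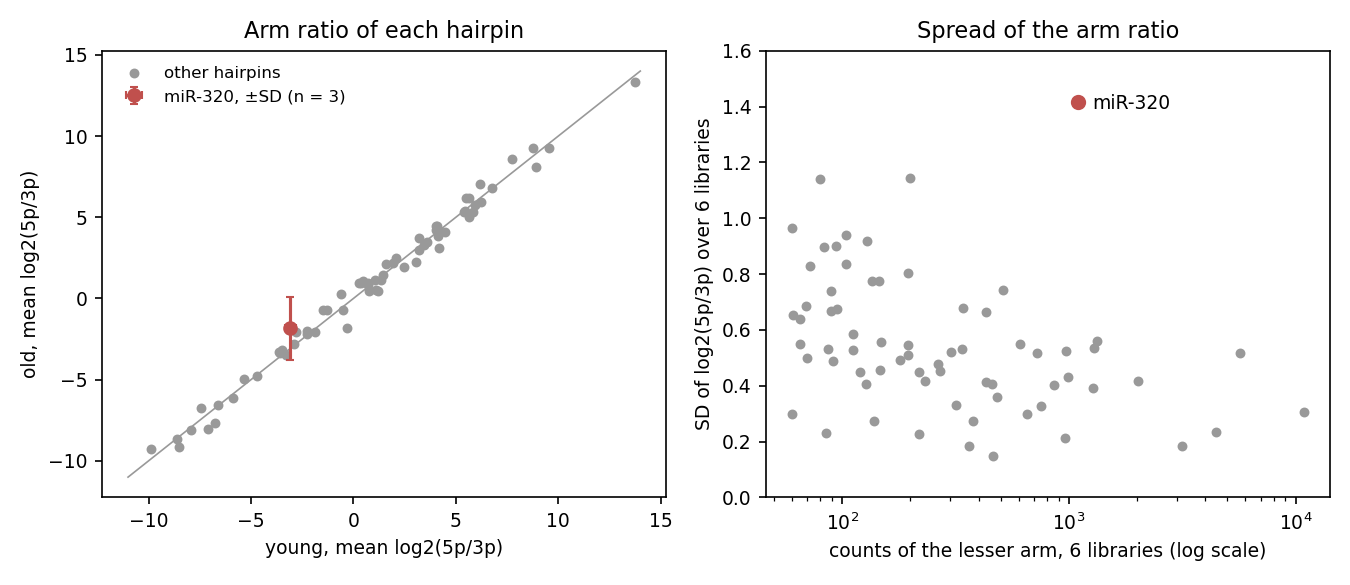
The left panel plots the mean log2 ratio of 5p to 3p counts in old (y axis) against young libraries (x axis) for 68 hairpins, with the line of equality and, for miR-320 (red), the SD over 3 libraries each. The right panel plots the SD of that log2 ratio over the 6 libraries against the counts of the lesser arm (log axis), where miR-320 lies highest at 1.42 with 1097 counts.

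By the Pearson correlation of log2 CPM over the 6 libraries, the miRNAs most alike to each member were picked from 307 other tested mature miRNAs. These values describe 6 libraries that share their composition, old replicate 1 included, and carry no test. For miR-320-5p they were miR-2137 (0.93), miR-6236 (0.92) and miR-32-5p (0.92), which shares the seed of miR-92. miR-6236 had 75.6, 153 and 144 CPM in old replicates 1, 2 and 3, against 73.1, 46.9 and 43.6 CPM in young replicates 1, 2 and 3, and like miR-320-5p it was higher in old replicates 2 and 3 than in the other libraries. This entry, which may be a fragment of another RNA, itself rose in old by edgeR's test, by 1.20 on the log2 scale with an adjusted p of 0.0234. It was picked for its correlation with miR-320-5p in these same libraries, so its pattern and its rise give no independent support. For miR-320-3p they were miR-5100 (0.96), miR-330-3p (0.96) and miR-133b-5p (0.95), the strand opposite the muscle miRNA miR-133b-3p. For miR-484 they were miR-503-3p (0.98), miR-324-5p (0.97) and miR-501-3p (0.96), which is made from an intron of Clcn5. The 3 members had no miRNA in common among these. Of the 307 compared, 2.93% correlated above 0.8 with miR-320-3p, 5.54% with miR-320-5p and 11.7% with miR-484. Some of those named were scarce: group means of miR-324-5p, miR-330-3p and miR-133b-5p were 6.94 to 15.1 CPM.

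Other miRNAs that bypass a step of the usual route were mostly scarce. Mirtrons are short introns that splicing, not Drosha, releases as hairpins. Of 6 mirtron products (both arms of miR-877, miR-1224 and miR-702), 1 passed the filter, miR-877-5p, with 11, 10 and 4 reads in old replicates 1, 2 and 3, against 16, 14 and 40 reads in young replicates 1, 2 and 3. Its groups overlapped in CPM, and its log2 fold change of -1.12 ± 0.56 did not pass (adjusted p = 0.259 by edgeR). miR-1224-5p had 0 reads in the 6 libraries together, which allows up to 3.57e-05% of all counts. miR-451a, which Drosha cuts but Argonaute 2 matures in place of Dicer, averaged 43794 ± 3918 CPM in old and 41976 ± 1246 CPM in young (SD, n = 3 each; log2 fold change 0.06, adjusted p = 0.857 by edgeR). miR-1983, which comes from a tRNA, averaged 348 ± 55.1 CPM in old and 408 ± 61.2 CPM in young (log2 fold change -0.23, adjusted p = 0.538 by edgeR). Of these 8 miRNAs, 3 were tested, and none passed in either direction.

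**Figure D4:**
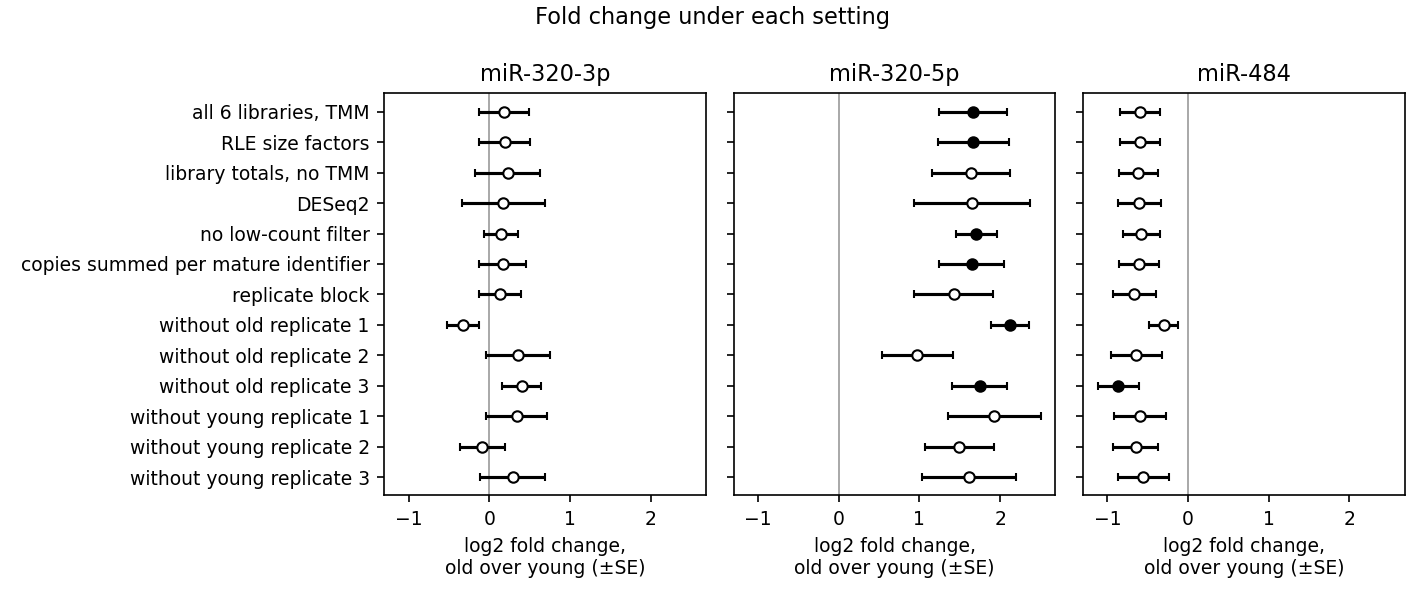
Each panel plots the log2 fold change of 1 miRNA, old over young (x axis, ±SE), under each setting, with filled points where the adjusted p was below 0.05. The value of miR-320-5p stays between 0.97 and 2.12, that of miR-484 between -0.87 and -0.30, and that of miR-320-3p lies on both sides of 0.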

How the data were processed

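The values are unnormalized counts per mature miRNA, which the authors made with featureCounts (2.0.6, per the file headers) from a miRNA annotation, with no option for strand, overlapping features or multi-mapping reads. Per the submitters' processing notes the authors aligned with BWA to mm10; settings and trimming are not stated there. Loci were named by position (RefSeq GRCm38.p6 miRNAs and GENCODE M21, tolerance 3 bases).

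In R 4.3.3, edgeR 4.0.16 (quasi-likelihood test) compared old with young on the deposited counts, after filterByExpr (minimum count 10, minimum total 15) and TMM scaling, with two-sided p-values adjusted by Benjamini-Hochberg over 347 loci. Arm ratios were tested with limma (version 3.58.1) over hairpins, and single values with exact permutation tests. DESeq2 (version 1.42.0) was an alternative. The procedures were run on simulated counts with the same dispersion at every locus and no library set apart. They were therefore not tried on a library like old replicate 1. Members and lists were chosen with earlier results of these data known. The named miRNAs were the members, 8 miRNAs of other non-canonical routes, the 3 most alike to each member, the 2 hairpins on either side of miR-320 in arm ratio and any hairpin past its threshold; Mir324, let-7i and the deeper Mir214 were named after their values were seen.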

Additional observations from a re-analysis of the deposited data

How the results depend on the processing

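For miR-320-5p the log2 fold change stayed above 0 in all 12 alternatives, and the call was lost with library totals in place of TMM (1.64), with DESeq2 (1.65) and in the fit with the replicate block (1.42), and in 4 of the 6 fits that left out 1 library (0.97 to 2.12 over the 6). For miR-320-3p these 6 fits gave -0.32 to 0.40, changing sign without old replicate 1 (-0.32) or young replicate 2 (-0.09). For miR-484 they gave -0.87 to -0.30, past the threshold without old replicate 3 (-0.87). The count of loci past the threshold, 15 with all libraries, was 6 with the replicate block and 5 to 45 with 1 library left out. The count of hairpins with a changed arm ratio, 0 with all libraries, was 1 by edgeR's exon-usage test and 0 to 1 with 1 library left out (Mir320 without old replicate 1, Mir872 without old replicate 3). The arm ratio difference of miR-320 kept its sign in all 10 alternatives (0.51 to 2.34). The difference in the share of counts was -0.0022 to 0.0244 percentage points with 1 library left out, below 0 without old replicate 1 (-0.00089) or young replicate 2 (-0.0022). The causes were not tested. Same-numbered old and young libraries did not deviate together (correlations of -0.13, 0.024 and -0.15 over 347 loci), so the numbers were not taken as pairs. Where 60 to 126 reads stand behind a miR-320-5p value, counting error is not negligible, as the interval of 4.32% to 7.19% around 5.63% in old replicate 1 shows. The intervals of the arm shares in old replicates 2 and 3 did not overlap those in the other libraries. They cover counting error only, not other differences between libraries.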
